A study of Homo sapiens with 6 samples.

Results

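The genes of the SR proteins and of the heterogeneous nuclear ribonucleoproteins (hnRNPs) were examined in gene-level total RNA sequencing of neuroblastoma cells. Members were the protein-coding genes whose symbol starts with SRSF or HNRNP, with *HNRNPL* and all pseudogenes left out. This gave 38 genes, 12 SRSF and 26 HNRNP, of the 60651 genes in the deposited tables. The 6 libraries came from 3 cultures whose titles name ethanol (EtOH) and 3 whose titles name tetracycline (Tet). Per the labels, tetracycline was given for 5 days.

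The labels did not agree on the cells. The titles name IMR575 (IMR-5/75, a *MYCN*-amplified line), a further tag speaks of a knockdown and gives Control for the EtOH samples and Induction for the Tet samples, and the protocol text describes single clones of SK-N-SH cells, stably transfected with a tetracycline repressor system that drives *MYCN*. The study's methods describe SK-N-AS cells with inducible *MYCN* and IMR-5/75 cells with an inducible shRNA against *MYCN*. Which of these models the libraries hold cannot be told from the labels, so libraries are called here by the word in their title and no direction of *MYCN* change is assumed. The comparison asks whether genes of splicing RNA-binding proteins differed in level between Tet and EtOH cultures of a model built to manipulate *MYCN*.

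SR proteins carry an RNA recognition motif and a tail rich in arginine and serine. They bind exonic enhancers and recruit the splicing machinery, and phosphorylation of the tail by SRPK and CLK kinases controls their place in the nucleus and their activity. The hnRNPs coat nascent transcripts, often bind silencers in exons and introns, and in many exons oppose SR proteins; they also act in RNA export, stability and translation. MYC proteins are known to raise the transcription of several splicing factors in other tumours, among them *SRSF1*, *HNRNPA1* and *HNRNPA2B1*.

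The libraries held between 27933378 and 40498065 counts. EtOH replicate 2 and Tet replicate 2 stood apart from the others: they lay at one end of the first principal component of log2 CPM, at 84.2 and 47.3 against -55.0 to -1.81 for the other 4 libraries, and that component held 44.7% of the variance, whereas the second, with 25.7%, separated EtOH from Tet. The results below are therefore also given without these libraries. *MYCN*, the targeted gene, was at 157.9, 256.3 and 155.9 CPM in EtOH replicates 1 to 3 and at 196.6, 200.2 and 145.4 CPM in Tet replicates 1 to 3. The groups overlapped (log2 fold change -0.072, SE 0.23, edgeR quasi-likelihood test, adjusted p = 0.956), so no change of *MYCN* RNA was detected in either direction. The differences below are between Tet and EtOH cultures and cannot be read as responses to a shown change of *MYCN*. The level of *MYCN* was not compared with that of other cell lines. Of 8 noradrenergic neuroblastoma markers, *DBH* alone lay under 1 CPM, and the sum of the list was 621.9 to 681.5 CPM in EtOH and 687.1 to 835.5 CPM in Tet libraries. The 4 blood cell markers summed to at most 1.37 CPM with *HBB* and *CD3E* at 0, and the 4 Schwann cell markers to at most 4.78 CPM with *S100B* at 0. The 6 mesenchymal markers, with *COL1A2* at 0, summed to 259.7 CPM in EtOH replicate 2 against 126.5 to 172.2 CPM in the other libraries.

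To order the genes by abundance, levels were expressed as TPM, which divides counts by exon length and scales each library to a common total. In the SRSF family, *SRSF1*, the founding SR protein and a general activator of exon inclusion, was the highest at a mean of 357.6 TPM over the 6 libraries. It was followed by *SRSF11* (248.2 TPM) and by *SRSF2* (243.0 TPM), a component of nuclear speckles, and these genes together took 51.7% of the family's TPM. *SRSF3*, the smallest SR protein and an adaptor for RNA export, had a mean of 170.7 TPM and *SRSF6* of 166.1 TPM. *SRSF10*, which represses splicing when dephosphorylated, had 138.3 TPM. The remaining genes were *SRSF5* (108.8 TPM), the zinc knuckle protein gene *SRSF7* (75.0 TPM), *SRSF9* (54.4 TPM), *SRSF4* (46.4 TPM), *SRSF8* (18.1 TPM) and *SRSF12* (14.6 TPM). Most neighbours in this order could not be told apart. Over the 6 libraries, the ranges were separate for 1 of 11 neighbouring pairs, *SRSF4* over *SRSF8*, and the order held in every library for 4 of 11 pairs.

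The HNRNP family was headed by 3 genes of similar level, *HNRNPA3* (368.1 TPM), *HNRNPK* (363.1 TPM), which binds C-rich sequence through KH domains, and *HNRNPA2B1* (334.0 TPM), which acts in splicing and RNA sorting. Together they took 37.6% of the family's TPM, a smaller share than the leading SRSF genes took of theirs. *HNRNPU*, a scaffold attachment factor, followed with 259.2 TPM, then *HNRNPC*, which binds uridine tracts and keeps Alu elements out of exons, with 240.7 TPM, and *HNRNPA1* with 192.9 TPM. *HNRNPDL* (181.3 TPM) and *HNRNPD* (125.7 TPM) encode related proteins that bind AU-rich elements. The genes of the G-tract binding proteins spanned *HNRNPH3* (152.6 TPM), *HNRNPH2* (134.6 TPM), *HNRNPH1* (100.9 TPM) and *HNRNPF* (37.9 TPM). The remaining genes were *HNRNPR* (76.7 TPM), *HNRNPAB* (59.0 TPM), *HNRNPM* (57.3 TPM), *HNRNPUL1* (42.3 TPM), *HNRNPA0* (40.1 TPM), *HNRNPLL* (35.9 TPM), which regulates splicing of *PTPRC* in lymphocytes, and *HNRNPUL2* (16.5 TPM). Of 21 neighbouring pairs 2 had separate ranges, *HNRNPLL* over *HNRNPUL2* and *HNRNPUL2* over the *HNRNPUL2-BSCL2* readthrough.

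**Figure D1:**
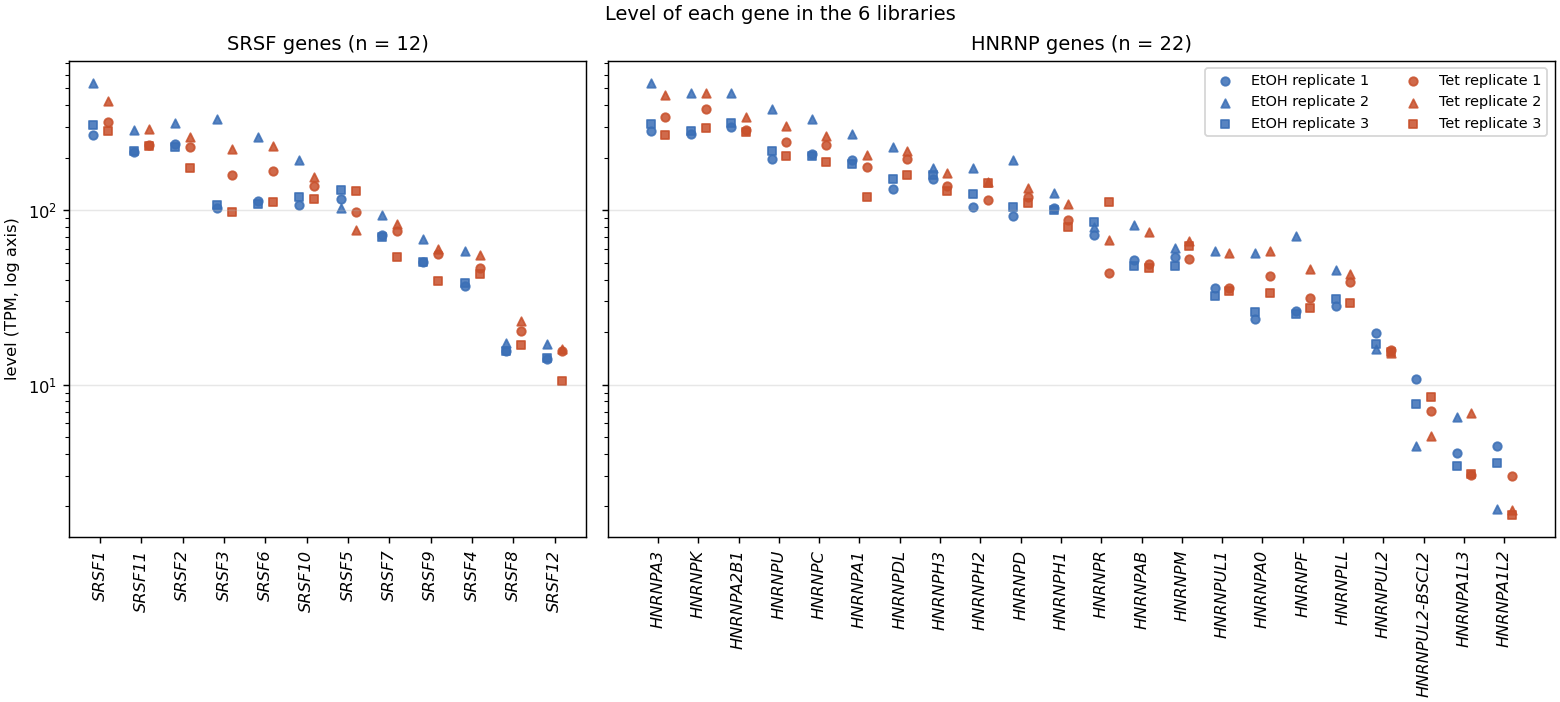
Level of each tested SRSF and HNRNP gene in TPM on a log axis, 1 point per library, ordered by mean level within a family; blue points are EtOH, orange points Tet, and triangles the replicate 2 libraries. The triangles are the highest points for most genes, and EtOH and Tet points overlap for all genes but *HNRNPUL2*, whose Tet points (15.1 to 15.7 TPM) lie below its EtOH points (16.0 to 19.7 TPM).

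A few members were barely detected or cannot be read on their own. *HNRNPCL1*, *HNRNPCL2*, *HNRNPCL3* and *HNRNPCL4*, intron-poor relatives of *HNRNPC* on chromosome 1, had 0 counts in all 6 libraries, where 3 counts correspond to 0.0741 to 0.107 CPM, and were not tested. *HNRNPA1L3* and *HNRNPA1L2*, copies of *HNRNPA1*, reached mean levels of only 4.49 and 2.76 TPM. The *HNRNPUL2-BSCL2* readthrough (7.25 TPM) lies with 100% of its exon bases inside *HNRNPUL2* and *BSCL2*, and its reads were divided with them. More than 10% of exon bases were shared with another gene for 9 of the 34 tested members, and after the readthrough the share was largest in *SRSF9* (46.7%, with *GATC*), *HNRNPUL2* (44.3%, with the readthrough), *SRSF2* (35.8%, with *MFSD11* and *MIR636*) and *SRSF1* (35.1%). Because only unique alignments were counted and strand was not used, levels of such genes, and of *HNRNPA1* and *HNRNPA3*, which have 74 and 16 annotated pseudogenes in the tables, are uncertain.

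Of the 34 genes tested, 0 passed the threshold between Tet and EtOH in either family, where 0.236% of all 22443 genes tested did (edgeR quasi-likelihood test, adjusted p under 0.05; 33 higher and 20 lower in Tet). At an unadjusted p under 0.05, 1 of 12 SRSF genes and 0 of 22 HNRNP genes were counted, against 10.8% of all genes. The groups were without overlap in TMM-normalised CPM for 1 member, *SRSF8*, against 17.5% of all genes. DESeq2 and limma-voom also called 0 members, against 606 and 58 of all 22443 genes. The median log2 fold change was -0.042 for SRSF (5 of 12 above 0), -0.016 for HNRNP (9 of 22 above 0) and -0.0061 over all genes, of which 49.3% were above 0. The range ran from -0.17 to 0.38 in SRSF and from -0.54 to 0.42 in HNRNP. In bulk cultures, a change in the make-up of the cells and in RNA per cell cannot be told apart.

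These values do not show that the genes were equal. The approximate 95% interval of the log2 fold change lay inside -1 to 1 for 31 of the 34 members, so that a difference of that size was outside the interval for all members but *SRSF3*, *HNRNPA0* and *HNRNPA1L2*. The median SE was 0.18 for SRSF, 0.23 for HNRNP and 0.34 over all genes, and the median within-group SD of log2 CPM was 0.22, 0.33 and 0.39.

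**Figure D2:**
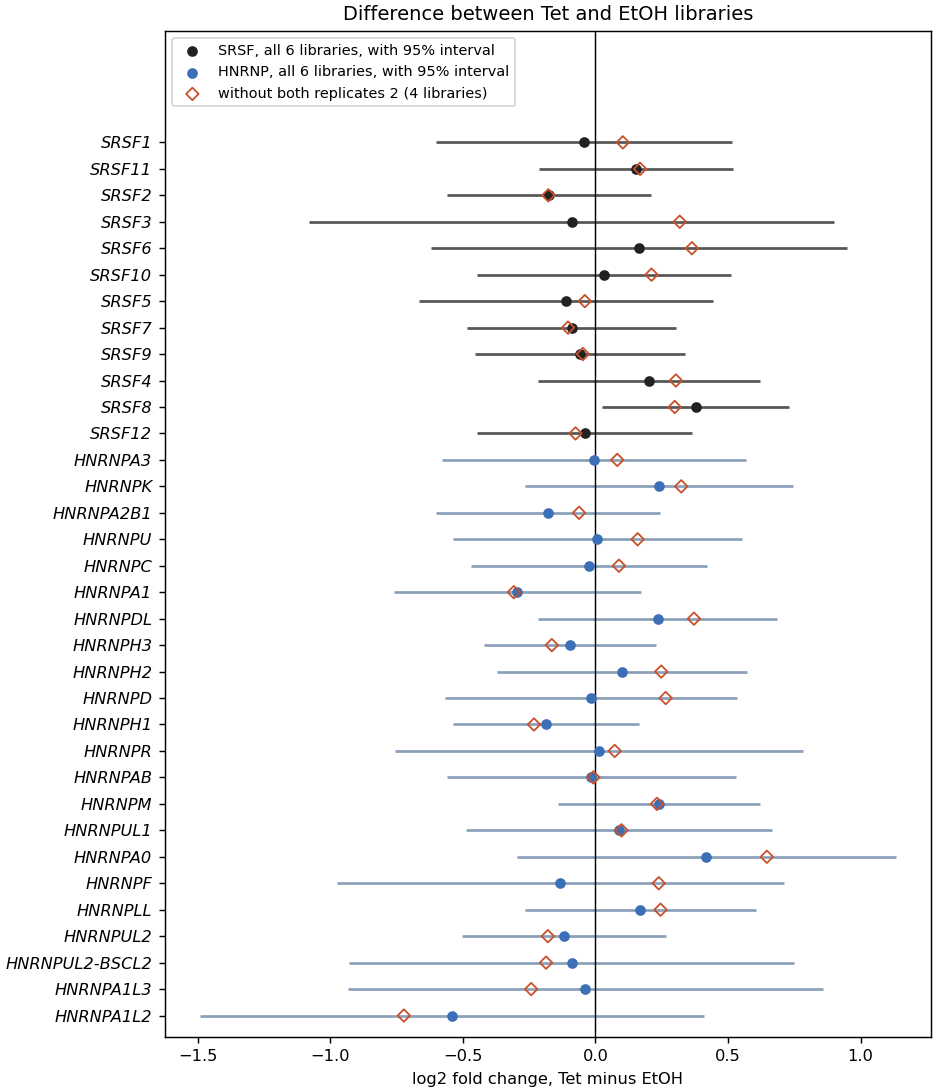
Log2 fold change of each tested gene, Tet minus EtOH. Filled points with lines are the estimate and approximate 95% interval from all 6 libraries (black SRSF, blue HNRNP), and open diamonds the estimate from the 4 libraries left when both replicates 2 are removed; *SRSF8* has the only interval off 0, and the diamond of *HNRNPA0* sits at 0.65.

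*SRSF8* (chr11:95066919-95071225, plus strand of GRCh38), an expressed retrocopy of *SRSF2* with a single exon, showed the largest log2 fold change of the SRSF family. Its levels were 24.8, 25.2 and 24.7 CPM in EtOH replicates 1 to 3 and 30.9, 36.4 and 29.8 CPM in Tet replicates 1 to 3. All Tet libraries were above all EtOH libraries, and the EtOH libraries were nearly alike. The log2 fold change was 0.38 (SE 0.16, 95% interval 0.024 to 0.73), with an unadjusted p of 0.0389 and an adjusted p of 0.430 in the edgeR quasi-likelihood test. It stayed between 0.29 and 0.44 when any 1 library was left out, with adjusted p from 0.198 to 0.900.

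Its parent *SRSF2* (chr17:76734115-76737333, minus strand) had the opposite sign. It was at 266.4, 320.0 and 252.6 CPM in EtOH and at 244.0, 286.2 and 213.3 CPM in Tet libraries. The groups overlapped, and the log2 fold change was -0.17 (SE 0.17, adjusted p by edgeR = 0.796). *SRSF4* was at 120.2, 173.0 and 124.2 CPM in EtOH and at 145.9, 179.9 and 154.7 CPM in Tet libraries, with a log2 fold change of 0.20 (SE 0.18, adjusted p by edgeR = 0.777). Its EtOH replicate 2 lay among the Tet libraries.

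The most abundant SRSF genes did not differ beyond their spread. *SRSF1* was at 580.8, 1053 and 659.7 CPM in EtOH and at 656.1, 897.3 and 672.4 CPM in Tet libraries (log2 fold change -0.043, SE 0.25, adjusted p by edgeR = 0.980). Its replicate 2 was the highest library of each group. *SRSF11* was at 680.9, 827.2 and 685.4 CPM in EtOH and at 714.7, 906.6 and 815.8 CPM in Tet libraries (log2 fold change 0.15, SE 0.16, adjusted p by edgeR = 0.819). The other 7 SRSF genes had log2 fold changes between -0.11 (*SRSF5*) and 0.16 (*SRSF6*).

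Among HNRNP genes, *HNRNPA0* (chr5:137745651-137754363, minus strand), an intronless gene whose protein binds AU-rich elements, had the largest positive difference. It was at 76.4, 166.9 and 83.7 CPM in EtOH and at 130.1, 187.1 and 119.9 CPM in Tet libraries. EtOH replicate 2 lay among the Tet libraries, and the other EtOH libraries lay below all of them. The log2 fold change was 0.42 (SE 0.31, 95% interval -0.30 to 1.13, adjusted p by edgeR = 0.715).

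*HNRNPA1* and its copy *HNRNPA1L2* had negative signs. *HNRNPA1* was at 483.2, 618.1 and 451.3 CPM in EtOH and at 423.2, 513.2 and 329.2 CPM in Tet libraries, with a log2 fold change of -0.29 (SE 0.20, adjusted p by edgeR = 0.684), the lowest adjusted p of the family. The groups overlapped. *HNRNPA1L2* was at 2.26, 0.902 and 1.79 CPM in EtOH and at 1.45, 0.959 and 1.01 CPM in Tet libraries, with a log2 fold change of -0.54 (SE 0.42, adjusted p by edgeR = 0.721). This was the largest absolute value of all members, on the lowest level of the tested members.

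*HNRNPM* was at 112.2, 114.8 and 99.4 CPM in EtOH and at 104.1, 137.6 and 143.5 CPM in Tet libraries (log2 fold change 0.24, SE 0.17, adjusted p by edgeR = 0.690). *HNRNPK* was at 514.8, 810.3 and 534.5 CPM in EtOH and at 685.4, 885.3 and 623.5 CPM in Tet libraries (log2 fold change 0.24, SE 0.22, adjusted p by edgeR = 0.785). In *HNRNPK* only EtOH replicate 2 overlapped the Tet libraries. *HNRNPA3* was at 705.3, 1218 and 762.8 CPM in EtOH and at 807.9, 1129 and 741.5 CPM in Tet libraries (log2 fold change -0.0046, SE 0.25, adjusted p by edgeR = 0.998). *HNRNPA2B1* was at 1409, 2022 and 1470 CPM in EtOH and at 1293, 1582 and 1457 CPM in Tet libraries (log2 fold change -0.18, SE 0.19, adjusted p by edgeR = 0.816). The other 15 tested HNRNP genes had log2 fold changes between -0.19 (*HNRNPH1*) and 0.23 (*HNRNPDL*).

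Most members were highest in the replicate 2 libraries. Both replicate 2 libraries were the highest of their group for 11 of 12 SRSF genes and 16 of 22 HNRNP genes, 27 of 34 in all, against 24.7% of all genes tested. They were the lowest for 1 SRSF and 3 HNRNP genes, against 28.7% of all genes. In EtOH alone, replicate 2 was highest for 29 of 34 members (41.7% of all genes), and in Tet alone for 27 of 34 (33.5% of all genes). In the partner lists described below, both replicate 2 libraries were the highest for 12 of 19 hnRNP entries (63.2%) and 8 of 23 SR partners (34.8%).

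In EtOH the excess was largest for *SRSF3*, at 272.8, 800.1 and 281.6 CPM in EtOH and at 402.1, 583.9 and 286.9 CPM in Tet libraries. EtOH replicate 2 lay 1.53 above the mean of the other EtOH libraries on the log2 CPM scale, and Tet replicate 2 lay 0.78 above the other Tet libraries. *HNRNPF* followed in EtOH with 1.33 (0.59 in Tet), then *SRSF6* with 1.11 (0.72 in Tet) and *HNRNPA0* with 1.06 (0.58 in Tet). In Tet the excess was largest for *HNRNPA1L3*, at 1.09, on a level of 2.06 to 4.82 CPM. *SRSF5* was the SRSF gene that was lowest in both, at 229.5, 186.4 and 255.9 CPM in EtOH and at 185.5, 151.5 and 285.0 CPM in Tet libraries. The HNRNP genes that were low in both were *HNRNPUL2*, the *HNRNPUL2-BSCL2* readthrough and *HNRNPA1L2*. The median excess was 0.31 in EtOH and 0.28 in Tet for SRSF, 0.52 and 0.29 for HNRNP, and -0.038 and -0.058 over all genes.

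Base composition moved with this deviation over all genes. Across the 22443 genes tested, Spearman's rho between the GC share of exons and the excess of replicate 2 was -0.37 in EtOH and -0.35 in Tet. These values are across genes, which are not independent and share libraries. Members were poorer in GC than genes at large, with a median of 41.1% in SRSF, 42.4% in HNRNP and 44.7% over all genes. Within the 34 members rho was -0.28 in EtOH and -0.033 in Tet. Within the partner lists described below, rho was -0.77 in EtOH and -0.67 in Tet for SR partners, and -0.67 and -0.66 for hnRNP entries. The 17 members with the lower GC share had a median excess of 0.63 in EtOH and 0.28 in Tet, and the 17 with the higher share 0.30 and 0.30. The mitochondrial genome took 29.7% of the TPM in EtOH replicate 2 against 36.2% to 44.0% in the other libraries. The part of these features in the members' levels was not tested.

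**Figure D3:**
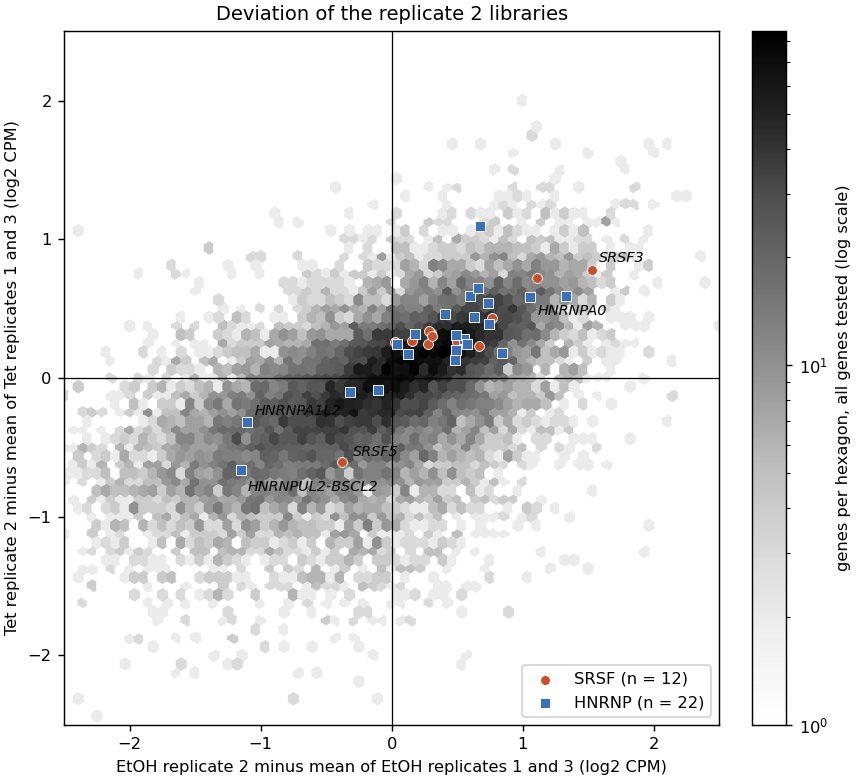
Excess of the replicate 2 library over the mean of replicates 1 and 3 on the log2 CPM scale, in EtOH (horizontal) and in Tet (vertical); grey hexagons count all genes tested, orange circles are SRSF and blue squares HNRNP genes. Most members lie at the upper right, with *SRSF3* at 1.53 and 0.78, and *SRSF5*, *HNRNPA1L2* and the *HNRNPUL2-BSCL2* readthrough lie in the lower left.

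Without EtOH replicate 2, the signs moved towards Tet. The median log2 fold change became 0.26 for both families, against 0.021 over all genes. Above 0 were 10 of 12 SRSF and 15 of 22 HNRNP genes, and the share of all genes above 0 was not computed for this fit. At the adjusted threshold, 0 members passed, against 2.89% of all genes. At an unadjusted p under 0.05, 11 of 34 members were counted against 20.5% of all genes. These were *SRSF3*, *SRSF4*, *SRSF6*, *SRSF8*, *HNRNPA0*, *HNRNPD*, *HNRNPDL*, *HNRNPF*, *HNRNPK* and *HNRNPLL* with higher and *HNRNPA1L2* with lower values in Tet. The removal of 1 high EtOH library lowers the EtOH mean of every gene that was high there, so the balanced fit without both replicates 2 was added after the data had been seen. In it, the medians were 0.14 for SRSF and 0.085 for HNRNP, against 0.027 over all genes, and 7 of 12 SRSF and 13 of 22 HNRNP genes were above 0. At an unadjusted p under 0.05, 7 of 34 members were counted, about the same share as the 20.8% of all genes. These members, all higher in Tet, were *SRSF4*, *SRSF6*, *SRSF8*, *HNRNPA0*, *HNRNPD*, *HNRNPDL* and *HNRNPK*. The split by direction over all genes was not counted at this p.

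In the fit without both replicates 2, 1 member passed the adjusted threshold, against 3.77% of all genes. This was *HNRNPA0*, at 76.4 and 83.7 CPM in the 2 remaining EtOH libraries and at 130.1 and 119.9 CPM in the 2 remaining Tet libraries, with a log2 fold change of 0.65 (SE 0.11, adjusted p by edgeR = 0.0264). Without EtOH replicate 2 alone, its log2 fold change was 0.87 (SE 0.20, adjusted p by edgeR = 0.0537). Over all alternatives its adjusted p ranged from 0.0264 to 0.985, so the call rests on which libraries are kept.

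As a family, SRSF genes summed to 1358, 2292 and 1415 TPM in EtOH replicates 1 to 3 and to 1566, 1903 and 1312 TPM in Tet replicates 1 to 3. The means were 1689 ± 524 TPM and 1593 ± 296 TPM (SD, n = 3 each). HNRNP genes summed to 2377, 3849 and 2489 TPM in EtOH and to 2652, 3272 and 2361 TPM in Tet libraries, with means of 2905 ± 819 TPM and 2762 ± 465 TPM (SD, n = 3 each). In both families the group means differed by less than either SD. When TPM was scaled to nuclear protein-coding genes alone, the Tet means were higher and not lower than the EtOH means, at 4975 ± 445 TPM against 4896 ± 677 TPM for SRSF and at 8640 ± 707 TPM against 8446 ± 944 TPM for HNRNP (SD, n = 3 each), still within the SD.

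The balance between the families varied much less than their totals. The HNRNP sum was 1.75, 1.68 and 1.76 times the SRSF sum in EtOH and 1.69, 1.72 and 1.80 times in Tet libraries. The mean ratio was 1.73 ± 0.044 in EtOH and 1.74 ± 0.056 in Tet (SD, n = 3 each), and the groups overlapped. The direction turned with the scale: from CPM, not divided by length, the ratio was 2.36 ± 0.065 in EtOH and 2.28 ± 0.044 in Tet (SD, n = 3 each), a difference of -0.071 that is larger than either SD, with overlapping groups. The 2 sums of a library share 1 total, which cancels in the ratio.

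**Figure D4:**
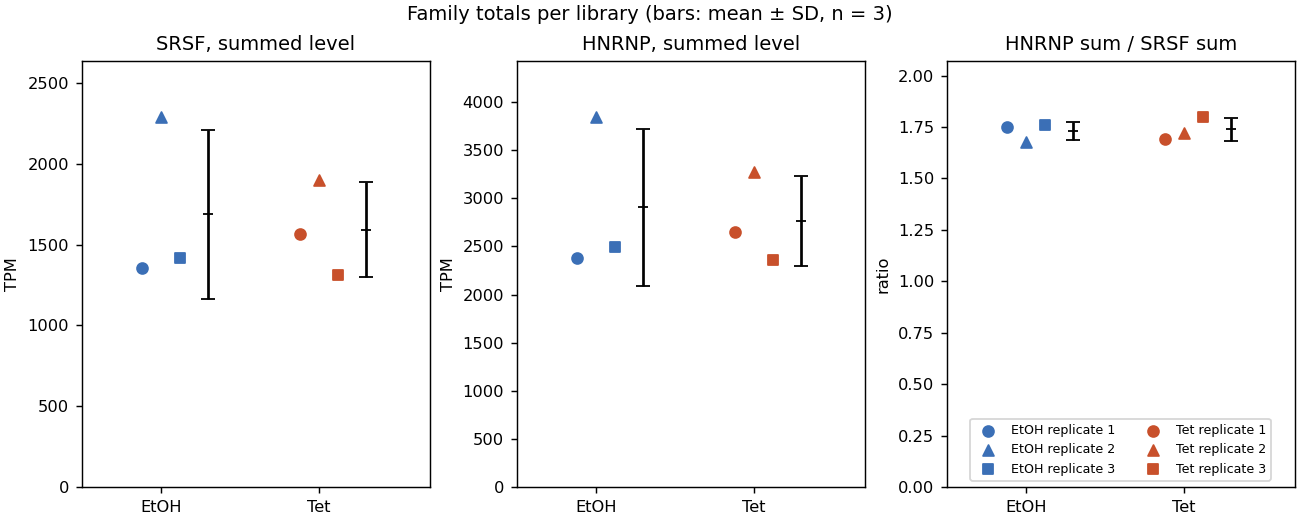
Summed TPM of the SRSF genes (left) and HNRNP genes (middle) and the ratio of the sums (right) per library, with axes from 0; bars beside the points are the group mean ± SD, n = 3. The replicate 2 libraries are the highest in both sums, whereas the ratio lies between 1.68 and 1.80 in all libraries.

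Partners of the families were read from 2 lists. Of 25 kinases, import factors and SR-related splicing proteins, 23 were tested, and 0 passed the threshold in either direction, with 15 above 0 and a median log2 fold change of 0.040. *U2AF1*, whose sequence occurs more than once in this genome build, and the kinase gene *SRPK3* had 3 and 7.5 counts in all libraries together and were not tested. *SRRM3*, a neuronal splicing activator of microexons, was at 5.41, 3.39 and 6.38 CPM in EtOH and at 8.08, 10.5 and 9.54 CPM in Tet libraries (log2 fold change 0.89, SE 0.28, adjusted p by edgeR = 0.278). *SRPK1*, the main cytoplasmic kinase of SR proteins, was at 308.0, 415.7 and 332.1 CPM in EtOH and at 250.3, 290.5 and 247.2 CPM in Tet libraries (log2 fold change -0.42, SE 0.16, adjusted p by edgeR = 0.405). The groups of these genes did not overlap, which held for 4 of the 23 genes of the list (17.4%) and for 17.5% of all genes. *U2AF2*, the large subunit of the factor that binds the polypyrimidine tract, was at 3.57, 2.74 and 2.31 CPM in EtOH and at 2.84, 3.86 and 9.81 CPM in Tet libraries (log2 fold change 0.94, SE 0.46, adjusted p by edgeR = 0.526), and Tet replicate 3 alone was high.

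Of 19 gene entries for hnRNP proteins under other symbols, their relatives and modifiers, all were tested. *MATR3* had 2 of these entries under different identifiers, with log2 fold changes of 0.011 and 0.016, and both are counted below. None passed the threshold, and 2, both higher in Tet, had an unadjusted p under 0.05, which is 10.5% against 10.8% of all genes. The log2 fold change was above 0 for 14 of 19, against 49.3% of all genes, and the median was 0.078. *RALYL*, a relative of *HNRNPC*, was at 4.55, 7.57 and 5.82 CPM in EtOH and at 10.8, 12.6 and 10.3 CPM in Tet libraries, without overlap (log2 fold change 0.91, SE 0.24, adjusted p by edgeR = 0.207). It passed the threshold with DESeq2, with the replicate block, without EtOH replicate 2 and without both replicates 2, and not in the other alternatives. *PCBP4* was at 5.08, 2.52 and 2.68 CPM in EtOH and at 4.82, 4.63 and 16.4 CPM in Tet libraries (log2 fold change 1.33, SE 0.53, adjusted p by edgeR = 0.423), and the difference rested on Tet replicate 3. *PCBP3* was at 5.75, 4.98 and 6.22 CPM in EtOH and at 8.76, 6.21 and 7.05 CPM in Tet libraries (log2 fold change 0.38, SE 0.23, adjusted p by edgeR = 0.630).

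Gene structure was looked at after the values were seen. The 3 tested members with a single exon block, *HNRNPA1L2*, *HNRNPA0* and *SRSF8*, had the 3 largest absolute log2 fold changes of the 34, with signs of -0.54, 0.42 and 0.38. The median absolute value of the other 31 members was 0.096. Over protein-coding genes tested, it was 0.31 in 299 single-block genes and 0.23 in 12531 others, and an unadjusted p under 0.05 was found for 10.7% and 11.8%.

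Because MYC proteins bind the E-box CACGTG together with MAX, this motif was searched in RefSeq promoters (GRCh38.p14, 250 bases before to 50 bases after a start; the motif reads the same on both strands). Promoters were found for 31 of the 34 tested members. None was found for *SRSF2*, *HNRNPA1* and *HNRNPA1L3*, so these genes were not searched. The motif stood in 8 of their 44 promoters (18.2%), against 7.26% of all 35116 promoters. By gene it stood in 7 of 31 (22.6%), against 8.77% of 27305 genes. These 7 were all of the HNRNP family: *HNRNPA3*, *HNRNPD*, *HNRNPDL*, *HNRNPH2*, *HNRNPH3*, *HNRNPM* and *HNRNPUL1*. None of the 11 SRSF genes with a promoter in the table held the motif. Both backgrounds include genes that were not tested here, and enrichment was not tested. The median log2 fold change was 0.089 in the 7 genes and -0.033 in the other 24. A match is a string of letters and no measured binding. Of the members counted as higher without both replicates 2, *HNRNPD* and *HNRNPDL* held the motif. *SRSF4*, *SRSF6*, *SRSF8*, *HNRNPA0* and *HNRNPK* did not. A link between motif and difference was not tested. Shown with the E-box in capitals are the windows of the most abundant HNRNP gene, of a gene among the lowest p-values of the family, and of a gene with a higher value at an unadjusted p under 0.05 without both replicates 2.
HNRNPA3 (chr2:177212696-177212755, plus strand): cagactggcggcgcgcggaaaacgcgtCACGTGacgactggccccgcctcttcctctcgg
HNRNPM (chr19:8444906-8444965, plus strand): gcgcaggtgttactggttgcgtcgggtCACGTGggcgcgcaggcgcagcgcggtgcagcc
HNRNPD (chr4:82373986-82374045, minus strand): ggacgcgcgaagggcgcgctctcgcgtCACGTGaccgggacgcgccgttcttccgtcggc
The motif started 71, 42 and 27 bases before a RefSeq start of these genes, whose log2 fold changes were -0.0046, 0.24 and -0.016. In the gene annotation used for the counts, which has starts further upstream, the windows shown lie inside the genes.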

How the data were processed

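Total RNA was depleted of ribosomal RNA and sequenced as stranded, paired-end libraries. Per the file headers, the authors ran read trimming and STAR alignment, then gave featureCounts 1.6.4 the uniquely aligned fragments, counting exons of each gene without strand and with a fragment divided among the genes it overlaps. The deposited values are therefore estimated counts per gene, 1 table per library, not scaled. The submitters' processing notes name featureCounts 1.5.1 and STAR 2.7.1a, and the study's methods describe other counting options; the headers were followed. Values that are not whole made up 12.3% to 14.7% of each table. The 92 spike-in sequences were at 0 and left out.

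Estimated counts were rounded, as the test takes whole counts. Low genes were removed with filterByExpr (edgeR 4.0.16, R 4.3.3; minimum count 10), scaled by TMM and tested with the quasi-likelihood F test, Tet against EtOH, without covariates. Benjamini-Hochberg adjustment ran over the 22443 genes of the fit, and an adjusted p under 0.05 was the threshold. The SE is the log2 fold change over the root of its F value, without sign, and the 95% interval follows from the same test, unadjusted. CPM is TMM-normalised. TPM was computed from unrounded counts and the exon length in the files. Log2 CPM has a prior count of 2. Symbols, found for 60437 identifiers (99.6%), and biotypes both came from GENCODE 44. In it, 53025 of 53026 identifiers of the same version had the same coordinates. GC shares were read from GRCh38. The edgeR step was tested on simulated data. The files give no estimate of technical error, and p-values measure the spread between these cultures.

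The members and lists were chosen with earlier results of these data known. Every member was named. Values in all libraries were given for the 3 members per family with the highest mean TPM, the largest absolute log2 fold change or the lowest p, for members without overlap or past the threshold, and for the 3 genes per partner list with the lowest p. *SRSF3* and *SRSF5* were added after their values were seen. The labels state no pairing by replicate number. Deviations of same-numbered libraries correlated at 0.060, 0.51 and 0.22 for replicates 1, 2 and 3. Libraries of different numbers were not compared in this way, so these values do not tell whether cultures were paired. Replicates of a group differed by more than sampling noise (chi-square per degree of freedom of at least 11.4).

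Alternatives were RLE size factors, upper quartile scaling, no filter, a minimum of 10 counts in every library, DESeq2 1.42.0, limma-voom (limma 3.58.1), values not rounded, a replicate block and each library left out. For family sums they were CPM, sums without the top gene, TPM over nuclear protein-coding genes and each library left out. Fits without both replicates 2 and without mitochondrial genes were added after the data were seen. Figures were drawn with matplotlib 3.10.9.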

Additional observations from a re-analysis of the deposited data

How the results depend on the processing

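The count of 0 members past the threshold held for SRSF in every alternative run and for HNRNP in all but the added fit without both replicates 2, where it was 1 (*HNRNPA0*); of 544 member values under alternatives, 65 had the opposite sign, 478 kept sign and side, and 1 passed the threshold. Signs were thus poorly fixed for values near 0: 20 of 34 members changed sign when some 1 library was left out, and the cause was not tested. Over all genes, calls in Tet numbered 185 higher and 117 lower without a filter, 346 and 260 with DESeq2, 421 and 254 with the replicate block, 487 and 387 without both replicates 2, and 13 lower with RLE size factors. Leaving out 1 library gave 0 to 361 higher and 0 to 331 lower calls, the upper ends without EtOH replicate 2; without any other library at most 1 gene was called in each direction. Replicate numbers mark no stated pairing. With the block 0 members were called, and *RALYL* of the partner list was (0.93, adjusted p by edgeR = 0.0396). An unadjusted p under 0.05 was found with the block for 1 of 12 SRSF and 2 of 22 HNRNP genes, against 3716 of all 22443 genes. *SRSF3* was then at 0.043, *HNRNPR* at -0.12, *HNRNPD* at 0.041 and *HNRNPA3* at 0.015, each with the opposite sign. Signs also turned for *HNRNPR* and *HNRNPU* with RLE size factors (-0.011 and -0.011) and DESeq2 (-0.011 and -0.011), for *HNRNPA3* with upper quartile scaling (0.00076), and with limma-voom for *SRSF3* (0.049), *HNRNPR* (-0.11), *HNRNPD* (0.045) and *HNRNPA3* (0.018). Without both replicates 2 they turned for *SRSF1* (0.10), *SRSF3* (0.32), *HNRNPA3* (0.082), *HNRNPC* (0.088), *HNRNPD* (0.26), *HNRNPF* (0.24) and *MYCN* (0.13), and the SRSF median became 0.14. With 1 library left out, the median ranged from -0.12 to 0.26 for SRSF and from -0.13 to 0.26 for HNRNP. Among SRSF genes the ranges were -0.23 to 0.26 (*SRSF1*), -0.39 to 0.62 (*SRSF3*), -0.41 to 0.073 (*SRSF5*), -0.11 to 0.64 (*SRSF6*), -0.21 to 0.032 (*SRSF7*), -0.16 to 0.062 (*SRSF9*), -0.13 to 0.30 (*SRSF10*) and -0.13 to 0.087 (*SRSF12*). Among HNRNP genes they were -0.51 to 0.23 (*HNRNPA1L3*), -0.30 to 0.010 (*HNRNPA2B1*), -0.21 to 0.29 (*HNRNPA3*), -0.24 to 0.22 (*HNRNPAB*), -0.15 to 0.19 (*HNRNPC*), -0.21 to 0.33 (*HNRNPD*), -0.39 to 0.47 (*HNRNPF*), -0.054 to 0.28 (*HNRNPH2*), -0.49 to 0.30 (*HNRNPR*), -0.17 to 0.30 (*HNRNPU*), -0.16 to 0.35 (*HNRNPUL1*) and -0.38 to 0.25 (*HNRNPUL2-BSCL2*), and for *MYCN* -0.22 to 0.21. Family sums depend on the scale: in CPM they were 3726 in EtOH and 3673 in Tet for SRSF and 8741 and 8386 for HNRNP, with ratios of 2.36 and 2.28, and in TPM over nuclear protein-coding genes 4896 and 4975 for SRSF and 8446 and 8640 for HNRNP. Without the top gene of each family, the SRSF sum in Tet was 1251 TPM and the ratios were 1.93 and 1.93. The 4 *HNRNPCL* genes had no counts, and unique alignment can also remove reads of near-identical copies.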
